A study of Mus musculus with 65 samples.

Results

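The ventral and dorsal ends of the sorted progenitor series were compared on day 4, the first day sampled after SAG was added. The ventral side was made of 8 RNA-seq libraries of p3 and pMN progenitors, and the dorsal side of 5 libraries of p0-1 progenitors, out of 65 libraries in 25 groups. Members were taken by their labels for day, sorted type and SAG concentration, and no measured value was used to choose them. All came from HM1 cells, a mouse embryonic stem cell line that was differentiated in culture towards spinal cord. Every culture had passed through neuromesodermal progenitors (NMPs) by day 3, after FGF and Wnt pathway activation and inhibition of BMP and TGF-beta signalling, and from day 3 every culture received 100 nM retinoic acid. The cultures then differed in SAG, a small molecule that activates Smoothened in place of Sonic hedgehog (Shh). p0-1 cells were taken at 0 nM (2 libraries) and 10 nM SAG (3 libraries). pMN cells were taken at 100 nM (2 libraries) and 500 nM (2 libraries), and p3 cells at 100 nM (1 library) and 500 nM (3 libraries). Cell type and SAG concentration therefore changed together between the 8 and the 5 libraries, and their effects cannot be told apart in that comparison. Cells were fixed, stained and sorted on the proteins SOX2, PAX6, NKX6.1, OLIG2 and NKX2.2. A p3 cell was NKX2.2 positive and OLIG2 negative, a pMN cell OLIG2 positive, and a p0-1 cell PAX6 positive without NKX6.1. The study states that its pMN sort for accessibility left out cells positive for both OLIG2 and NKX2.2. The study describes its replicates as independent differentiations of the 1 cell line.

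In the neural tube, Shh is released by the notochord and floor plate and spreads dorsally. It binds Patched1 (PTCH1), which frees Smoothened to act on the GLI transcription factors, and GLI proteins then regulate target genes that include Ptch1 and Gli1 themselves. The level and duration of the signal set up bands of progenitors, among which p3 gives V3 interneurons, pMN gives motor neurons and p0 and p1 give V0 and V1 interneurons. Transcription factors that Shh induces (such as NKX6.1, OLIG2 and NKX2.2) and factors it represses (such as PAX6, DBX1 and the IRX proteins) repress each other across the boundaries of these bands.

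The 13 libraries held 7684611 to 13484815 reads assigned to genes, and in 9718 to 14124 genes at least 1 read was found. Genes detected per library had a median of 12446 in p3 and pMN and 13985 in p0-1, so that the ventral side was the less complex one. A single library stood apart. p3 at 100 nM SAG, replicate 3, had the most reads of all 65 libraries and the fewest genes, 9718. Of 6099 genes with at least 100 normalised reads in each of the other 12 libraries, 334 were at 0 in that library, whereas the same count was at most 34 for any other of the 13. The second lowest number of genes detected on the ventral side, 11416, belonged to pMN at 100 nM replicate 2. Counts of called genes are given with and without the first of these libraries, as are the medians of the pathway lists. A normalised read is a read count divided by the authors' size factor for the library, and all levels below are in that unit. Levels of p0-1 are listed in the order 0 nM replicates 2 and 3, then 10 nM replicates 1, 2 and 3.

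The genes of the 5 sort proteins were looked at first, because they check the labels and are no finding. Sox2, which the gate required on both sides, averaged 1247 ± 329 (SD, n = 8) in p3 and pMN and 1254 ± 66.9 (SD, n = 5) in p0-1. Olig2 was at 0 in the 5 p0-1 libraries and ran from 33.7 to 1801 (median 431) in p3 and pMN, with all 4 pMN libraries (447, 1801, 1078 and 1187) above all 4 p3 libraries (103, 146, 33.7 and 415). Nkx2-2 was at 0 in p0-1 as well. It had 33.7, 59.8, 103 and 21.4 reads in the p3 libraries and 0, 96, 0 and 11.2 in the pMN libraries, so the RNA of the protein that defines p3 was low on this day and did not separate p3 from pMN. Exons of Nkx2-2 overlap those of Nkx2-2os on the opposite strand. Nkx6-1 ran from 143 to 744 on the ventral side and from 11.9 to 52.4 in p0-1, without overlap. Pax6 was 1958, 3998, 1852, 2860 and 5185 in p0-1 and 41.8 to 1746 (median 981) in p3 and pMN, also without overlap, although its log2 change of -2.37 (SE 0.54) missed the threshold described next (limma adjusted p = 0.0134). Among further markers of p0-1, Dbx1 was present in all 5 libraries, Dbx2 in 4 (66.8, 0, 226, 49.1 and 24.8) and in 4 of the 8 ventral libraries, and Prdm12 was at 0 in all 13 libraries.

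To ask which genes differed between the ventral and the dorsal progenitors, 1 limma model was fitted to log2(value + 1) of 13964 genes in all 65 libraries, and genes counted as called had to pass both an adjusted p (Benjamini-Hochberg) under 0.01 and a fold change above 2. Log2 changes are p3 and pMN minus p0-1. With all 13 libraries 50 genes were called, which is 0.358% of those tested; 16 were higher in p3 and pMN and 34 lower. Without p3 at 100 nM replicate 3, 15 genes were called (0.107%), 8 higher (0.0573%) and 7 lower (0.0501%), and all 15 were among the 50. Without both libraries under 12000 detected genes, a setting added after seeing the data, 15 genes were called as well, 10 higher (0.0716%) and 5 lower (0.0358%), and 13 of the 15 just described were among them. The genes that were called both ways are Nkx2-9, Olig2, Frem1, Gli1, Grrp1, Nkx6-1, Ptch1 and Adgrv1, which were higher, and Dbx1, Scube2, Hes3, Ndnf, Slc28a2, Irx5 and Fndc5, which were lower. Among these 15 genes the log2 change moved by at most 0.86 (Irx5) when that library was left out, and by at most 0.42 (Ndnf) in the other 14. Of the 34 lower genes, 26 had at most 3 reads in the library that stands apart. They include genes of general cell function such as Ilkap, which was at 0 there and at 965 to 2168 in the other 7 ventral libraries, against 965 to 1656 in p0-1; its log2 change was -1.32 with that library and -0.02 without it. Ilkap, whose exons overlap those of Erfe on the opposite strand, was named after its values were seen. The median log2 change over all tested genes was -0.25 with the library and -0.13 without it. After quantile normalisation that median was -0.03 and 28 genes were called, 18 higher and 10 lower, so the balance of higher and lower calls depends on the scaling. With the number of genes detected as a covariate the median was 0.01, and 17 genes were called higher and 16 lower, among them 14 of the 15.

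**Figure D1:**
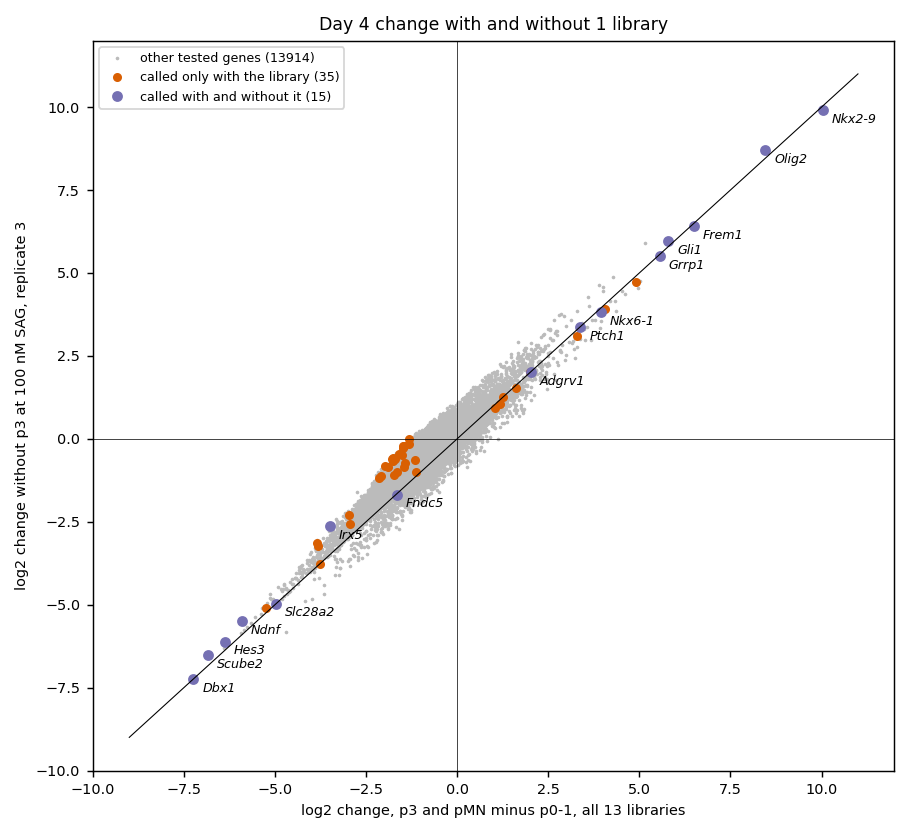
Log2 change between p3 plus pMN and p0-1 on day 4 for each tested gene, with all 13 libraries (x axis) and without p3 at 100 nM SAG replicate 3 (y axis); the line marks equal values. The 15 named genes lie near the line, while most of the 35 genes called only with that library are lower genes that lie nearer to 0 without it.

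Among the genes called both ways, the promoters of Nkx2-9 and Olig2 are shown as those of the genes with the largest positive changes, that of Dbx1 as that of the gene with the largest negative change, and that of Frem1 for a motif match. Each run is the 250 bases before the RefSeq start, 5′ to 3′ along the gene, on build GRCm38.p6 (mm10): Nkx2-9 at chr12:56613285-56613534 (minus strand), Olig2 at chr16:91225300-91225549 (plus), Dbx1 at chr7:49636836-49637085 (minus) and Frem1 at chr4:83052167-83052416 (minus). Capitals mark the only kind of match found, described after the sequences.
Nkx2-9: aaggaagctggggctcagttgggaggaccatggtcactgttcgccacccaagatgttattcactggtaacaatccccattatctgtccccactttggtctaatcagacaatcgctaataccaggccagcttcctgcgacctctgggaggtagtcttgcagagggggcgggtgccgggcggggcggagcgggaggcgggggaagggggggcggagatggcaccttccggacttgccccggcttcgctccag
Olig2: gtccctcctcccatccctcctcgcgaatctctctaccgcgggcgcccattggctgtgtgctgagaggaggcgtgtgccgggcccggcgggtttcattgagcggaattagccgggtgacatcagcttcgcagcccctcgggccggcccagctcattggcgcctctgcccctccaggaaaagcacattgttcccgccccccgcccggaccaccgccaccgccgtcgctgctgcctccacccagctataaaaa
Dbx1: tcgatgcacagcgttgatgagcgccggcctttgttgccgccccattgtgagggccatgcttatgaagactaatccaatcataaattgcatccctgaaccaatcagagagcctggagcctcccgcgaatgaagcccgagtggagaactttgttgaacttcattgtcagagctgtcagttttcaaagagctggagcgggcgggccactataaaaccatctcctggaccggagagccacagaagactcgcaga
Frem1: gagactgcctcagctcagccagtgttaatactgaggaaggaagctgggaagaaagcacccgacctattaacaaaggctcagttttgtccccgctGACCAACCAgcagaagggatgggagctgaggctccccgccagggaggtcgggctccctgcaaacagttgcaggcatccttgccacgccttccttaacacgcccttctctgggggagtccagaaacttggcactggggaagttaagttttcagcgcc
The letters of the GLI binding motif, GACCACCCA, were searched on both strands of the 250 bases. They occur in 74 of 32851 promoters in the RefSeq table (0.225%) and in 0 of the 46 promoters that it holds for 41 of the 50 called genes. Gli1, Hes3, Irx5 and Ndnf are among the called genes for which it holds no promoter, so theirs were not searched. With any 1 letter allowed to differ, 5.79% of all promoters held a match and 3 of those 46 did. Both Frem1 promoters were among these, the one above with GACCAACCA at 156 bases before the start and the other, at chr4:83021103-83021352, with GACCACACA at 239 bases. Such a match is a description of the letters and not a binding site.

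Of the Shh target genes, Ptch1 and Gli1 were called higher in the ventral progenitors, 2 of the 10 tested genes of a list of 12 (0.115% of all tested genes were called higher). All 10 had a positive change, with a median of 1.08 (1.00 with 1 gene at its lower limit, 1.26 without p3 at 100 nM replicate 3) against -0.25 over all genes, and 5 had an unadjusted p below 0.05, as did 10.2% of all tested genes. Ptch1 (chromosome 13, 63508328 to 63573460), which encodes the Shh receptor, had 385, 349, 545, 1438 and 1076 reads in p0-1 and ran from 4054 to 10334 (median 7695) in p3 and pMN. Every ventral library was above every p0-1 library. The means were 7047 ± 2103 (SD, n = 8) and 759 ± 478 (SD, n = 5). On the log2 scale Ptch1 differed by 3.38 (SE 0.27), with a limma adjusted p of 1.4e-12, and by 3.36 without the library that stands apart. Gli1 (chromosome 10, 127329882 to 127341579), a GLI activator and readout of the pathway, had 0, 0, 113, 60.2 and 591 reads in p0-1 and 508 to 2087 (median 1175) in p3 and pMN. The groups overlapped only because the lowest ventral library, again p3 at 100 nM replicate 3 with 508, lay below the highest p0-1 library. Gli1 changed by 5.79 on the log2 scale, with an SE of 0.63 and a limma adjusted p of 1.87e-08, and 8 of 8 ventral libraries lay above the p0-1 median. Exons of Gli1 overlap exons of Arhgap9 on the opposite strand, and whether reads were counted by strand is not given in the sources used here.

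Among the other targets of the list, Hhip, which encodes a membrane protein that binds and sequesters Shh, did not pass the test. It had 128, 30.1, 0, 63.9 and 0 reads in p0-1 and 119 to 1381 (median 445) in p3 and pMN (log2 change 5.02, SE 1.27, limma adjusted p = 0.0329). Foxf1 had too few reads to be tested, and Foxf2 was at 0 in all 13 libraries.

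Transcription factors of the ventral domains formed the list with the largest median change. All 8 genes were tested and all had a positive change, with a median of 4.19 (4.33 with the 3 genes that were at 0 in p0-1 set at their lower limit). Olig2, Nkx6-1, Nkx2-2 and Nkx2-9 were called, the first 2 of which and Nkx2-9 stayed called without p3 at 100 nM replicate 3. Since Olig2, Nkx6-1 and Nkx2-2 are genes of the sort, the 5 others carry what the gate did not use. Nkx2-9 (chromosome 12, 56611397 to 56613284), a homeobox gene of the p3 domain related to Nkx2-2, had no reads in 4 of the 5 p0-1 libraries and 1.84 normalised reads in the fifth, 10 nM replicate 3. In p3 it had 2503, 4822, 1601 and 2870 reads, and in pMN 345, 752, 442 and 1195. All 4 p3 libraries were thus above all 4 pMN libraries, and both were far above p0-1. The fitted change was 10.03 (SE 0.95, limma adjusted p = 3.53e-10). The change between p3 and pMN, 2.12 (SE 1.27), did not pass the test (limma adjusted p = 0.411, highest over the alternatives 1).

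Nkx6-2, a homeobox gene related to Nkx6-1, had 425 to 3894 reads (median 1496) in p3 and pMN and 95.2, 0, 442, 179 and 245 in p0-1. Its change of 4.32 (SE 1.16) missed the threshold (limma adjusted p = 0.0514). Olig1, the neighbour of Olig2 that acts in oligodendrocyte development, was at 0 in the 5 p0-1 libraries and reached 283 and 228 in 2 pMN libraries (limma adjusted p = 0.172). Foxa2, a forkhead factor of the floor plate and p3, ran from 0 to 1555 (median 442) in p3 and pMN. It was at 1379, 339, 471 and 1555 in the 4 p3 libraries and at 0, 413, 0 and 530 in the 4 pMN libraries, and in p0-1 it had 0, 74, 0, 0 and 135 reads (change 4.35, SE 1.59, limma adjusted p = 0.246). Foxa1 had reads in 4 of the 8 ventral libraries and in 1 of the 5 p0-1 libraries. Shh itself had reads in 2 of the 13 libraries, 66.3 in p3 at 500 nM replicate 1 and 26.9 in pMN at 500 nM replicate 2. The floor plate list of 12 genes, which shares Foxa1 and Foxa2, had 8 tested members with a median change of 1.23 (1.34 with Shh at its lower limit), and 0 were called by limma, edgeR or DESeq2, 3 having an unadjusted p below 0.05.

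**Figure D2:**
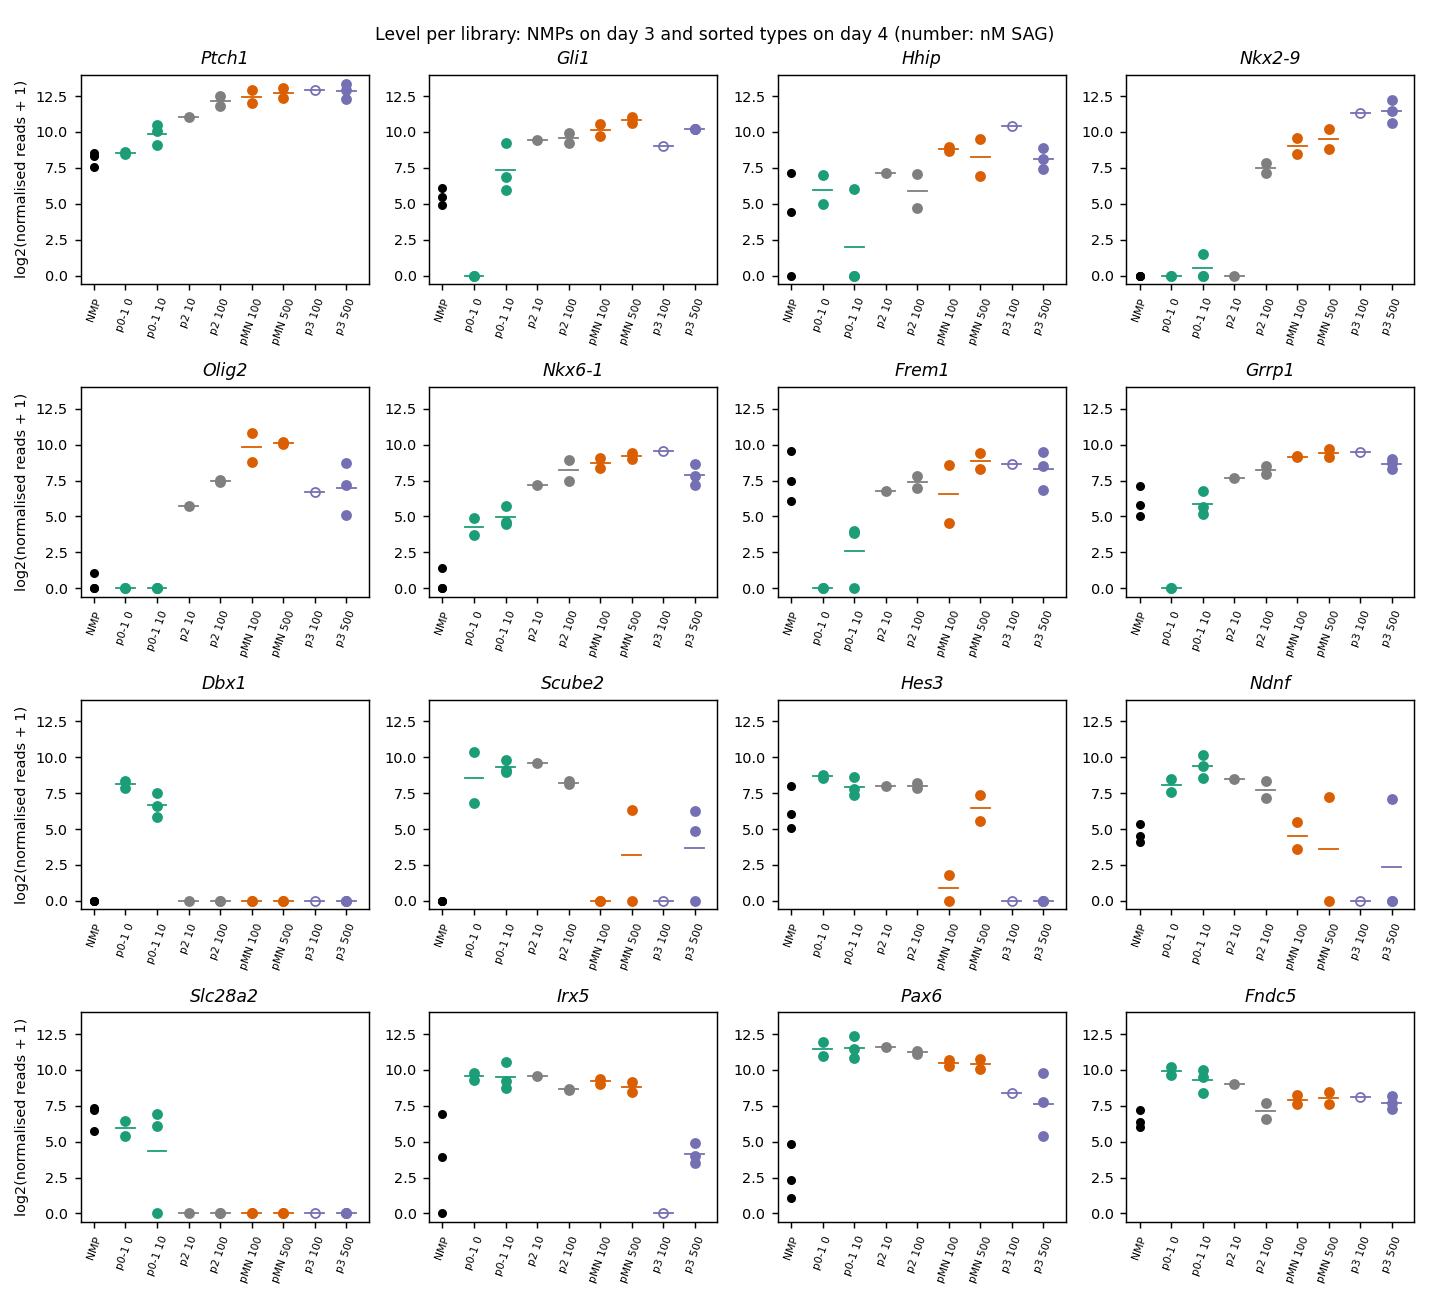
Normalised reads on the log2(value + 1) scale in single libraries (points) of NMPs on day 3 and of each sorted type and SAG concentration in nM on day 4, with a line at the mean of the log2 values; the open point is p3 at 100 nM replicate 3. Ptch1, Gli1, Nkx2-9, Olig2, Nkx6-1, Frem1 and Grrp1 were higher in pMN and p3 than in p0-1, and Dbx1, Scube2, Hes3, Ndnf, Slc28a2 and Fndc5 were lower over the 8 libraries. Irx5 was lower in p3, with pMN at 351 to 674 against 430 to 1523 in p0-1.

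Of the factors of intermediate and dorsal progenitors, Dbx1 and Irx5 were called lower (0.243% of all tested genes were). Of the 19 genes 13 were tested, 11 of which had a negative change, with a median of -1.80 (-1.37 without p3 at 100 nM replicate 3) against -0.25 over all genes. The 13 include Pax6, a gene of the sort. Dbx1 (chromosome 7, 49631499 to 49636835), which specifies p0 progenitors, had 230, 330, 180, 98.3 and 56.1 reads in p0-1 and 0 in all 8 ventral libraries. Against 3 reads per library the ventral level was at least 67.6-fold lower, and the fitted change was -7.24 (SE 0.89, limma adjusted p = 4.72e-07). A fitted change of a gene that is at 0 on one side depends on the pseudocount and is no bound. Irx5 (chromosome 8, 92357796 to 92361456), an Iroquois homeobox gene, had 636, 887, 1523, 430 and 613 reads in p0-1. Within the ventral side it split by cell type. The pMN libraries had 509, 674, 557 and 351 reads, within or close to the range of p0-1, and the p3 libraries had 0, 10.4, 14.9 and 29.1. The log2 change against p0-1 was -3.49 (SE 0.51, limma adjusted p = 2.33e-05) with and -2.63 without the library that stands apart.

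Irx3, a second Iroquois gene that lies near Irx5, divided pMN and p3 in the same manner. Its levels were 1504, 1523, 1461 and 1178 in pMN, 13.9, 65, 533 and 665 in p3 and 1423, 1492, 2129, 1343 and 1680 in p0-1. Its change against p0-1 was -1.86 (SE 0.45, limma adjusted p = 0.0244). Pax3, a factor of dorsal progenitors, had 52.5, 35.6, 0, 0 and 50.6 reads in p0-1 and none in the 8 ventral libraries, at least 10.5-fold lower (limma adjusted p = 0.0121). Pax7 was found in 2 of the 13 libraries, both p0-1, and was not tested. Irx1 had 17.5 to 95.9 reads in p0-1 and 0.8 to 58.5 in p3 and pMN (limma adjusted p = 0.956).

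Components of the pathway upstream of the targets did not move as a group. Of 23 genes 20 were tested, 8 with a positive and 12 with a negative change, with a median of -0.52 (-0.03 without p3 at 100 nM replicate 3). Scube2 and Gas1 were called lower. Scube2 (chromosome 7, 109798691 to 109865679), whose secreted product helps release of lipid-modified Shh from producing cells, had 109, 1341, 547, 506 and 894 reads in p0-1. On the ventral side it was at 0 in 5 of 8 libraries and at 74.5, 28.2 and 79.8 in the others, so the groups did not overlap. The means were 22.8 ± 35 (SD, n = 8) and 680 ± 463 (SD, n = 5), and the fitted difference of -6.83 had an SE of 1.22 and a limma adjusted p of 0.000803. Its call was kept without the library that stands apart and was lost with the number of genes detected as a covariate (adjusted p = 0.0194). Gas1, a co-receptor that promotes Shh reception, had 1913, 2656, 1184, 1204 and 1610 reads in p0-1 and 21.9 to 1303 (median 834) in p3 and pMN. Its change of -1.64 (SE 0.35, limma adjusted p = 0.00734) became -1.0 without p3 at 100 nM replicate 3, which holds the 21.9 reads, and the call was then lost (adjusted p = 0.492, with a range from 1.45e-05 to 1 over the alternatives). The other co-receptors and the transducers, named here after their values were seen, were not called. Boc and Cdon averaged 239 ± 283 and 64.2 ± 75.7 (SD, n = 8) in p3 and pMN and 346 ± 131 and 236 ± 177 (SD, n = 5) in p0-1. Smo, which encodes Smoothened, averaged 2833 ± 1072 (SD, n = 8) and 2236 ± 645 (SD, n = 5). For the transcription factors Gli2 and Gli3 the changes were -0.84 (SE 0.78) and -0.56 (SE 0.42), and that of Gli2 was 0.11 without the library that stands apart.

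Outside the lists, Frem1, Grrp1 and Adgrv1 were called higher both ways. Frem1 (chromosome 4, 82897920 to 83052166), which encodes an extracellular matrix protein of basement membranes, was at 0, 0, 0, 13.5 and 14.7 in p0-1 and ran from 22.4 to 723 (median 381) in p3 and pMN. No ventral library overlapped with p0-1, and the change was 6.5 (SE 1.11, limma adjusted p = 0.000392). Grrp1 (chromosome 4, 134251110 to 134254106), which encodes a glycine- and arginine-rich protein, had 0, 0, 34.6, 109 and 50.6 reads in p0-1 and 321 to 821 (median 560) in p3 and pMN, again without overlap (change 5.56, SE 0.93, limma adjusted p = 0.000285). In both genes the 2 p0-1 libraries at 0 nM SAG were at 0. Adgrv1 (chromosome 13, 81095068 to 81633144), a large adhesion G protein-coupled receptor, averaged 2130 ± 856 (SD, n = 8) against 591 ± 372 (SD, n = 5) (change 2.02, SE 0.38, limma adjusted p = 0.0014). Its lowest ventral library (733) lay below the highest p0-1 library (1066).

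A further 8 genes were called higher with all 13 libraries only. For 6 of them the 8 and the 5 libraries did not overlap, with or without p3 at 100 nM replicate 3; over all tested genes this held for 0.186% with and 0.329% without it. Igfbp5, a secreted binding protein for insulin-like growth factors, had 211, 121, 207, 284 and 218 reads in p0-1 and 779 to 5660 (median 1848) in p3 and pMN, with 4835, 3078, 2353 and 5660 in p3 and 1260, 1343, 779 and 833 in pMN. Its change was 3.28 (SE 0.66, limma adjusted p = 0.00418), and 3.09 without p3 at 100 nM replicate 3 (adjusted p = 0.0226). Trp53i11, Pltp (a phospholipid transfer protein), Vangl1 (a planar cell polarity component) and Ube2c (a mitotic ubiquitin-conjugating enzyme) had smaller changes of 2.01, 1.61, 1.27 and 1.04. Exons of Pltp overlap those of Ctsa on the opposite strand. Ckb, which encodes the brain creatine kinase and was named after its values were seen, changed by 1.18 (SE 0.21) and its libraries overlapped by little, with 1636 to 5495 reads in p3 and pMN and 1064 to 1647 in p0-1. Nkx2-2 was also among the 8.

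Besides Dbx1, Scube2 and Irx5, the genes called lower both ways were Hes3, Ndnf, Slc28a2 and Fndc5. The groups did not overlap for 3 of these 7, Dbx1, Scube2 and Ndnf, and over all tested genes ventral levels lay wholly below p0-1 in 0.236% with all 13 libraries and in 0.308% without p3 at 100 nM replicate 3. Hes3 (chromosome 4, 152285972 to 152291662), a transcriptional repressor of the Hes family that keeps neural progenitors undifferentiated, had 431, 382, 224, 161 and 388 reads in p0-1. On the ventral side it was at 0 in 5 of 8 libraries, the 4 of p3 among them, and at 2.4, 163 and 47.1 in 3 pMN libraries. The change was -6.38 (SE 0.82, limma adjusted p = 1.33e-06). Ndnf (chromosome 6, 65671611 to 65706930), which encodes a secreted neurotrophic glycoprotein, had 194, 352, 1161, 374 and 669 reads in p0-1 and 0 to 150 (median 5.6) in p3 and pMN, without overlap (change -5.91, SE 0.97, limma adjusted p = 0.000223). Slc28a2 (chromosome 2, 122440820 to 122461136), a nucleoside transporter, had 86.5, 42, 118, 67.6 and 0 reads in p0-1 and 0 in all ventral libraries, at least 23.7-fold lower (limma adjusted p = 3.23e-07). The ventral groups, all at 0, added no spread to the fit, so this p-value does not measure the spread of p0-1. Fndc5 (chromosome 4, 129136999 to 129144593), the precursor of irisin, had 808, 1183, 1003, 335 and 720 reads in p0-1 and 152 to 353 (median 237) in p3 and pMN. Its change was the smallest of the lower 7 at -1.65 (SE 0.32, limma adjusted p = 0.00222).

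The other pathway lists held few called genes. The Notch list (20 tested) had 2 called lower, Hes3 and the ligand gene Dll1, where 0.243% of all tested genes were, and a median of -0.30 (-0.26 without p3 at 100 nM replicate 3). Dll1 was at 0 in p3 at 100 nM replicate 3 and at 362 to 1299 in the other ventral libraries, against 787 to 1199 in p0-1, and its change went from -1.76 to -0.59 without that library. The FGF list (17 tested) had 1 called lower, the receptor gene Fgfr2, with 4031, 5159, 2587, 4318 and 3828 reads in p0-1 and 885 to 4036 (median 1820) in p3 and pMN (change -1.13, SE 0.24, limma adjusted p = 0.00708), a call that was lost without the library that stands apart (change -0.99). The median of that list was -0.81, -0.25 with 1 gene at its limit and -0.32 without that library, against -0.25 and -0.13 over all genes. No gene was called by limma in the other lists. Their medians are given with all 13 libraries and then without p3 at 100 nM replicate 3. They were -0.55 and -0.23 for 25 Wnt targets and antagonists, -0.23 and 0.17 for 14 BMP targets and antagonists, -0.27 and -0.30 for 19 retinoic acid genes, and -0.52 and -0.37 for 11 proneural factors. The direction of the BMP list thus turned with that library. Medians were -0.85 and -0.63 for 30 genes of axon guidance and cadherins, -0.09 and -0.03 for 18 cell cycle genes, -0.20 and -0.22 for 14 neural progenitor genes, -0.78 and -0.67 for 21 Hox genes, and -2.02 and -1.66 for 13 dorsal signals. An unadjusted p below 0.05, which 10.2% of all tested genes had, was found for 6 genes of the Wnt list, 2 of the BMP list, 1 retinoic acid gene, 1 proneural factor, 13 genes of axon guidance and cadherins, 3 cell cycle genes, 4 neural progenitor genes, 4 Hox genes and 4 dorsal signals. In these lists edgeR, which called 0.58% of all genes, called 2 genes of axon guidance and cadherins and no other. DESeq2, which called 911 genes (6.52%), called 5 of these and 5 dorsal signals, 3 proneural factors, 2 Hox genes, 2 neural progenitor genes and 1 each of the Wnt and BMP lists.

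Some values in these lists describe what both sides shared. Mki67 and Top2a, 2 genes of dividing cells, had 3988 to 5788 and 5286 to 9172 reads in p0-1 and 4490 to 8141 and 6164 to 7945 in p3 and pMN. Crabp1, a retinoic acid binding protein gene named after its values were seen, had 2123 to 3250 reads in p0-1 and 1588 to 6434 in p3 and pMN, and it had averaged 49.7 in NMPs on day 3. In the list of dorsal signals, Wnt1 and Wnt3a were at 0 in all 8 ventral libraries and were found in 1 and 2 of the 5 p0-1 libraries, at 29.2 to 51.5 reads. Of the 30 tested genes of axon guidance and cadherins 27 had a negative change, as did 64.7% of all tested genes, and Nrp1 was the only one whose libraries did not overlap, with 1658, 930, 411, 1006 and 497 reads in p0-1 and 0 to 360 in p3 and pMN (limma adjusted p = 0.0484). It was named after its values were seen.

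**Figure D3:**
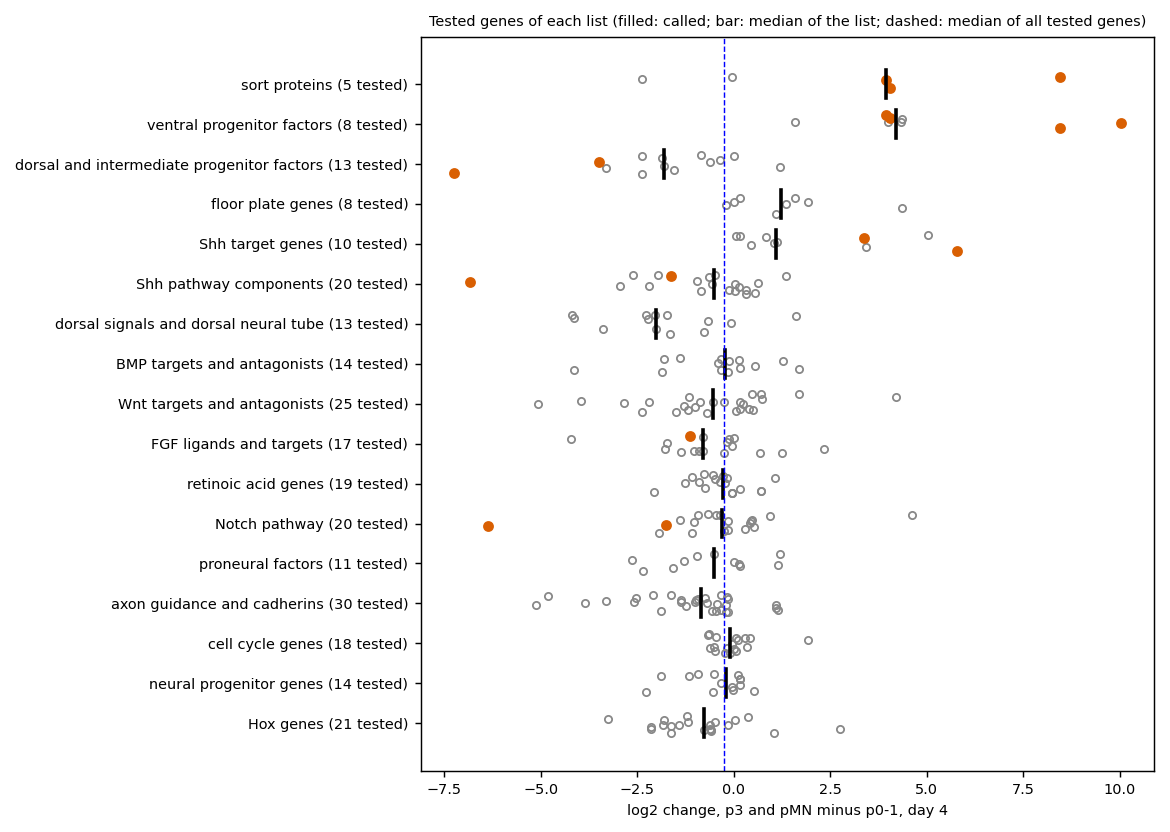
Log2 change on day 4 of each tested gene (open points), grouped by list, with called genes filled, a bar at the median of each list and a dashed line at -0.25, the median of all tested genes. The lists of ventral progenitor factors and Shh targets have medians of 4.19 and 1.08, and that of dorsal and intermediate factors -1.80. Both lists of progenitor factors include genes of the sort.

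Markers of other cell types were examined by list. Of 14 NMP markers 13 were tested, 6 had an unadjusted p below 0.05, and the only gene called by limma or edgeR was Hes3, which neural progenitors also express; DESeq2 called 2. T and Sp5 averaged 2407 and 1014 reads in NMPs on day 3, whereas on day 4 T had reads in 2 of the 8 ventral and 1 of the 5 p0-1 libraries (at most 70.3), Sp5 had 1.57 reads in 1 library, and Fgf8 was at 0 in all 13. The summed level of the list ran from 264 to 2728 in p3 and pMN and from 2666 to 4133 in p0-1, against 7663 to 12373 in NMPs, most of it on day 4 being Sp8, with 264 to 2049 and 2103 to 3478 reads (limma adjusted p = 0.113). Summed pluripotency markers (10 genes) ran from 1.46 to 165 in p3 and pMN and from 30.1 to 208 in p0-1. Paraxial mesoderm (12 genes) ran from 7.32 to 386 and 153 to 246, neural crest (8 genes) from 166 to 895 and 202 to 821 (182 to 417 in NMPs), neurons (19 genes) from 222 to 1454 and 751 to 1239, fibroblast feeders (10 genes) from 1.46 to 779 and 375 to 707, and endoderm (9 genes) from 62.6 to 1444 and 310 to 921. None of these last 6 lists held a called gene in the limma fit (at an unadjusted p below 0.05 there were 2 pluripotency genes, 1 feeder gene and 0 of the others, and DESeq2 called 1 mesoderm and 1 neuron gene). List members at 0 in all 13 libraries were Msgn1, Meox2 and Pax1 for mesoderm, Esrrb and Tdgf1 for pluripotent cells, Foxd3 for neural crest, Thy1 and Postn for feeders, Sox17 and Ttr for endoderm, and Lhx3, Lhx5, Evx1, Evx2, Sim1 and Slc17a6 for neurons. Other members of each list had reads and make up the sums above, so the genes at 0 do not show that a cell type was absent. In bulk samples fewer cells of a type and less RNA per cell cannot be told apart.

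p2 progenitors lie between these domains and were sorted at 10 and 100 nM SAG. Their 3 libraries on day 4 (100 nM replicates 2 and 3, 10 nM replicate 3) gave Ptch1 levels of 3509, 5901 and 2141, Gli1 levels of 614, 956 and 681 and Olig2 levels of 188, 168 and 52.6, each between the means of p0-1 and of p3 and pMN. Nkx2-9 had 138 and 224 reads at 100 nM and 0 at 10 nM. Dbx1 and Slc28a2 were at 0 in all 3 p2 libraries, as on the ventral side, whereas Scube2 (278, 323 and 791), Hes3 (226, 288 and 259) and Irx5 (387, 408 and 767) were present, as in p0-1. At 100 nM SAG the type can be compared at a fixed concentration, over 3 ventral and 2 p2 libraries. There 151 genes were called (1.08%), all lower in p3 and pMN, but without p3 at 100 nM replicate 3 only 7 were (0.0501%). That library is the only one of p3 at 100 nM, so the second count is of pMN alone against p2. Hes3 was called (change -7.41, SE 1.32, limma adjusted p = 0.000278), at 0, 2.4 and 0 against 226 and 288 reads. Without that library its adjusted p was 0.0106, in a range from 0.000118 to 0.132 over the alternatives. The change of Scube2, -8.23, had an adjusted p of 0.0102, with 0 reads in the 3 ventral libraries. For Ptch1 and Gli1 the changes at this fixed concentration were 0.45 (SE 0.43) and 0.18, with limma adjusted p-values of 0.786 and 1.

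Concentration could be compared within a type. In p0-1, 1 gene was called between 10 and 0 nM SAG (0.00716%), and it was Gli1, which had 0 and 0 reads at 0 nM and 113, 60.2 and 591 at 10 nM (change 7.33, limma adjusted p = 4.29e-05). It was called in 9 of 12 alternatives, with an adjusted p up to 0.659. Ptch1 had 385 and 349 reads at 0 nM and 545, 1438 and 1076 at 10 nM, without overlap (change 1.36, SE 0.43, limma adjusted p = 1). Frem1 and Grrp1, at 0 in both libraries at 0 nM, were found in 2 and 3 of the 3 libraries at 10 nM. Between 500 and 100 nM in p3 and pMN the count of 747 called genes (5.35%), 745 higher at 500 nM (5.34%) and 2 lower (0.0143%), dropped to 13 (0.0931%) without replicate 3 of p3 at 100 nM, the only library of that group. Without that library the comparison is of pMN alone. With it, the change between 500 and 100 nM, averaged over p3 and pMN, was 0.10 (SE 0.36) for Ptch1, 0.34 for Nkx2-9 and 0.32 for Olig2. The p3 part of these changes rests on that library at 100 nM, so they do not show that concentration had no effect.

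The 2 ventral types were compared next, to see how far they can be taken as one side. With all libraries 656 genes were called between p3 and pMN (4.7%), 627 of them lower in p3 (4.49%) and 29 higher (0.208%), and without p3 at 100 nM replicate 3 the limma fit called 0, with 567 genes at an unadjusted p below 0.05. The second fit compares p3 and pMN at 500 nM alone, 3 libraries against 2. Irx5 was 509, 674, 557 and 351 in pMN against 0 to 29.1 in p3, a change of -6.93 (SE 0.69, limma adjusted p = 9.41e-11) that was called in 12 of 15 alternatives. Without p3 at 100 nM replicate 3 it was -4.65 and the adjusted p 0.0102, where the alternatives reached 0.0135. The change of Irx3 was -4.43 (SE 0.61, limma adjusted p = 2.87e-07) and that of Pax6 -2.45 (SE 0.72, limma adjusted p = 0.0226). Without the library Irx3 changed by -2.20, at an adjusted p of 0.74. That is the top of a range over its alternatives that began at 1.46e-11. Against p0-1, p3 alone, with the library that stands apart among its 4, gave 230 called genes, 209 of them lower, and pMN alone 17, 9 of them lower, and both fits called Ptch1, Gli1, Nkx2-9, Olig2, Nkx6-1, Grrp1, Dbx1, Scube2 and Slc28a2.

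On days 5 and 6 the same contrast could be made in separate libraries, 22 of p3 and pMN and 12 of p0-1, where 172 genes were called (1.23%), 110 higher (0.788%) and 62 lower (0.444%). Of the 15 genes called on day 4 with and without p3 at 100 nM replicate 3, 14 had the same sign on days 5 and 6 and 13 were called there. The 13 include Olig2 and Nkx6-1, whose proteins were used in the sort on each day, so their agreement is no finding. Of the 35 genes called only with that library, 27 had the same sign and 6 were called. The 6 comprised 5 of the 8 higher genes and 1 of the 27 lower genes, Gas1, with a change of -1.65 (limma adjusted p = 5.66e-07) on days 5 and 6. Conversely, 136 of the 172 later genes had the same sign on day 4, where the 110 higher ones had a median change of 0.52 and the 62 lower ones of -1.03, and 19 were called. Prdm12, for instance, was at 0 in all day 4 libraries. The level of Dbx1 in p0-1 averaged 179 ± 108 (SD, n = 5) on day 4 and 2263 ± 880 (SD, n = 12) on days 5 and 6, and that of Olig2 in p3 and pMN 651 ± 636 (SD, n = 8) and 2199 ± 1711 (SD, n = 22).

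The difference between the days was itself tested. It was called for 10 genes (0.0716%), all with a lower day 4 change, of which 2 stayed (0.0143%) without p3 at 100 nM replicate 3. One was Slc28a2, which was at 0 in all 34 libraries of p3, pMN and p0-1 on days 5 and 6, so that the p0-1 reads of day 4 were not found later. It had averaged 119 in NMPs. Groups in which Slc28a2 was at 0 throughout added no spread to the fit, which can make its p-value too small. The other was Igdcc3, a transmembrane protein of the immunoglobulin superfamily, with changes of -0.53 on day 4 and 0.47 on days 5 and 6 (difference -1.0, limma adjusted p = 0.00433). Adgrv1 was the other of the 15 that was not called later. Its change was 2.02 on day 4 and 0.41 on days 5 and 6, as p0-1 went from 591 ± 372 (SD, n = 5) to 2622 ± 1227 (SD, n = 12), and the difference between the days did not pass the test (limma adjusted p = 0.114).

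**Figure D4:**
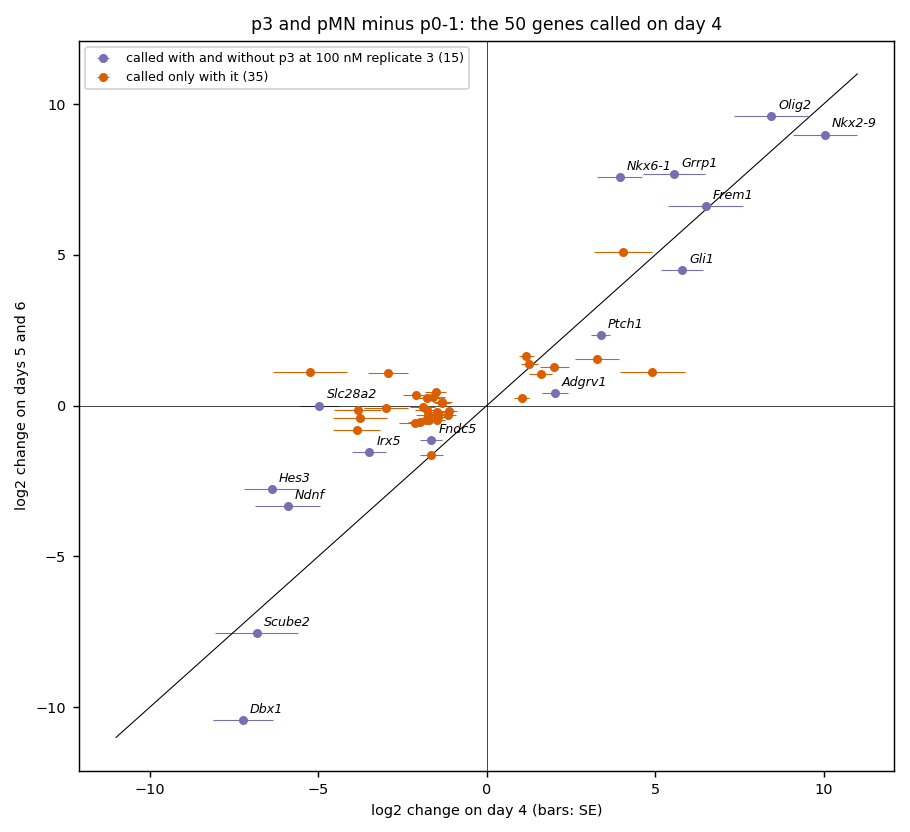
Log2 change between p3 plus pMN and p0-1 on day 4 (x axis, bars are SE) and on days 5 and 6 (y axis) for the 50 genes called on day 4; the line marks equal values. Most of the 15 genes called with and without p3 at 100 nM replicate 3 lie in the corners of equal sign, and most lower genes called only with that library lie near 0 on the y axis.

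Day 3 NMPs, the common starting population, give a reference for the direction from which the sides parted. In 3 NMP libraries Nkx2-9 and Dbx1 were at 0 and Olig2 and Nkx6-1 averaged 0.375 and 0.551 reads. On day 4 the first 3 were found on one side, save for the 1.84 reads of Nkx2-9 in p0-1, whereas Nkx6-1 was found on both. Ptch1 averaged 292 in NMPs and 759 in p0-1, and Gli1 46.3 and 153, levels in p0-1 that lay closer to NMPs than to p3 and pMN. Frem1 averaged 336 reads in NMPs, 380 in p3 and pMN and 5.64 in p0-1. Its mean ventral level was thus within the range of NMPs (66.1 to 765) and its mean p0-1 level below it, although the lowest ventral library was below that range as well. Slc28a2 had the opposite order, with 119 in NMPs, 62.7 in p0-1 and 0 in p3 and pMN. These levels on different days were set side by side and not tested.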

How the data were processed

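RNA-seq was made from fixed, sorted cells after full-length cDNA amplification. The authors aligned reads to mm10 with ERCC sequences and used featureCounts with refGene gene models to count them, ignoring duplicates, which lowers counts of abundant genes most. Libraries that failed their quality criteria had been removed. The deposited values are a signal, namely read counts divided by 1 size factor per library. All 834400 values above 0 were whole multiples (100.0%, tolerance 0.01) of what 1 read is worth, so counts could be recovered. With edgeR on the recovered reads 81 genes were called and with DESeq2 911, against 50 in the limma fit. The deposited annotation carries gene positions (other values). No column was left unmapped. No molecular identifiers were used, so limits drawn from counts cover counting error only.

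Libraries were grouped by the labels. limma (3.58.1, R 4.3.3, intensity trend) was fitted to log2(value + 1), with a pseudocount of 1, for 13964 genes with a mean of at least 10 over 65 libraries, with 25 group means (residual degrees of freedom 40, prior 7.43). On this scale the pseudocount can make the fitted change of a low gene too small. Where some libraries hold no reads of a gene, the fitted change can instead exceed the change between the mean levels, as for Scube2. All adjusted p-values are Benjamini-Hochberg and from this fit unless another tool is named. edgeR 4.0.16 and DESeq2 1.42.0 were alternatives, beside a pseudocount of 10, other filters, scalings, subsets and each library left out. The fit was tested on simulated data over the 13964 genes for the day 4 comparison. There 78% of the simulated 4-fold changes and 100% of the simulated 16-fold changes were called. In the measured data some genes with fitted changes above 16-fold, Hhip among them, were not called. The simulated shares therefore do not give the share of real changes that was found. Lower limits of fold changes use 3 reads per library.

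The libraries compared, the gene lists and the alternatives were chosen with earlier results of these data known. Genes of the lists could be named whatever their values, from lists of over 8 genes the called ones and up to 4 others in list order. Beyond the lists, up to 12 genes per direction were named by size of change, from those called without overlap and with a mean of 100 or more on one side, and 3 per direction for other comparisons. The 15 genes called with and without p3 at 100 nM replicate 3, and genes said to be so, were named after their values were seen. Promoters came from a RefSeq table. Each limma p-value rests on the spread of libraries around the means of the 25 groups. p3 at 100 nM, a group of 1 library, adds nothing to that spread. Differences between types or SAG concentrations within the ventral or the dorsal side do not enter it either. The p-values and SEs thus do not measure the spread of the 8 or the 5 libraries. A few genes are not reported here.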

Additional observations from a re-analysis of the deposited data

Results flagged for a closer look

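In 37 sets of day 4 values tested for a sample far from the others (the genes called with and without p3 at 100 nM replicate 3, and those named for the size of their change, in the 8 ventral and the 5 p0-1 libraries), 4 had such a sample by Dixon's test. Chance gives about 1 in 20 for normally distributed values, which sets with many zeros are not, so no excess over chance can be read from this. With the other 4 libraries at 0, any read of Nkx2-9 in p0-1 would have been flagged. Gli1 had 591 reads in p0-1 at 10 nM replicate 3, above 0 to 113 in the other 4, and Nkx2-9 had its only p0-1 reads (1.84) in the same library. Hes3 had 163 reads in pMN at 500 nM replicate 2, against 0 to 47.1 in the other 7 ventral libraries. Ube2c had 3578 reads in p3 at 100 nM replicate 3, against 1522 to 2247 in the other 7.

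For 10 genes the change between p3 plus pMN and p0-1 differed between day 4 and days 5 and 6 by the interaction term of the limma model. The day 4 change minus the later change was -8.09 for Scara3, -4.97 for Slc28a2, -4.00 for Tagln3, -3.26 for Nedd9, -2.83 for Slit3, -2.46 for Rnf216, -1.97 for Dennd6b, -1.91 for Btbd17, -1.41 for Ilkap and -1.0 for Igdcc3. Of the 10, 5 were at 0 in p3 at 100 nM replicate 3. Without that library the interaction was called for Slc28a2 (adjusted p = 0.000159) and Igdcc3 (adjusted p = 0.0069) only. The adjusted p of Scara3 was then 0.0323, that of Tagln3 0.0279, and that of Ilkap 0.997.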

How the results depend on the processing

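On day 4 the count of 50 became 30 with a pseudocount of 10, 10 with only the compared libraries fitted, 81 with edgeR, 911 with DESeq2, 28 after quantile normalisation, 209 with array weights, 324 with the average of group means, 33 with the number of genes detected as a covariate and 125 at an adjusted p below 0.05. It was 230 for p3 alone, 17 for pMN alone, 10 and 17 for replicate numbers 2 and 3 alone, and 15 without the 2 libraries under 12000 genes detected, an alternative chosen after seeing the data. Of the 15 genes called with and without p3 at 100 nM replicate 3, 0 were called with replicate number 2 alone, 1 with replicate number 3 alone, 9 with pMN alone and 15 with p3 alone, 14 were called with edgeR and with DESeq2, 6 with only the compared libraries fitted and 13 without those 2 libraries. The fits by replicate number took their spread from the 13 libraries grouped by side and number. Differences between types and between SAG concentrations counted as spread there, unlike in the main fit. Leaving out 1 library gave 15 to 84 on day 4. The count was 25 and 29 without p0-1 at 0 nM replicates 2 and 3, 29 without p0-1 at 10 nM replicate 3, 81 without pMN at 100 nM replicate 3, and 79 and 84 without replicate 3 of p3 and of pMN at 500 nM.

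On days 5 and 6 DESeq2 called 807 genes against 172, and leaving out 1 library gave 154 to 197. For the difference between the days (10 genes) the count was 17 with no filter on low values, 2 with only the compared libraries fitted, 19 with edgeR, 640 with DESeq2, 19 with the replicate block, 3 without the 2 libraries under 12000 genes and 1 to 29 without 1 library (1 without replicate 2 of p0-1 at 0 or at 10 nM, 2 without p3 at 100 nM replicate 3, 29 without pMN at 100 nM replicate 3), 17 of the 47 libraries moving it by over 1.5 times. Against p2 at 100 nM (151 genes) it was 51 with a pseudocount of 10, 227 with no filter, 0 with only the compared libraries fitted (2147 genes at an unadjusted p below 0.05), 260 with edgeR, 1856 with DESeq2 and 20 without the 2 libraries. Leaving out 1 of its 5 libraries gave 7 to 563: 53 and 36 without p2 replicates 2 and 3, and 414 and 563 without pMN replicates 2 and 3. Between 500 and 100 nM (747 genes) it was 414, 142 and 3070 with a pseudocount of 10, the compared libraries alone and DESeq2, 20 without the 2 libraries and 13 to 778 without 1. Between p3 and pMN (656 genes) the same settings gave 414, 178, 2637 and 0 (583 at an unadjusted p below 0.05), and 0 to 665 without 1 library. In these 3 comparisons the lowest counts among those with 1 library left out, 7, 13 and 0, were without p3 at 100 nM replicate 3, and the last had 567 genes at an unadjusted p below 0.05. Between 10 and 0 nM (1 gene) limma gave 0 with a pseudocount of 10 and with only the compared libraries fitted (282 and 439 at an unadjusted p below 0.05), 62 with no filter, 153 with DESeq2, and 0 to 2 without 1 library, 0 without p0-1 at 0 nM replicate 3 and 2 without replicate 2.

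Over 42 named genes and 1255 alternative values, 1009 kept direction and side of the threshold, 191 lost and 42 gained the call, and 13 changed sign, all but Ilkap in genes that were not called. The change became 0.01 for Ilkap without the 2 libraries. That of Sox2 became 0.03 with the average of group means, 0.00 with pMN alone, 0.28 with replicate number 3 alone and, over the libraries left out in turn, ran from -0.13 without p3 at 100 nM replicate 3 to 0.08 without p3 at 500 nM replicate 1. That of Irx1 became 0.58 after quantile normalisation and 0.03 with genes detected as a covariate. That of Gli2 became 1.02 with pMN alone, 0.18 with replicate number 2 alone and, over the libraries left out, ran from -1.22 without pMN at 100 nM replicate 3 to 0.11 without p3 at 100 nM replicate 3. That of Gli3 became 0.19 and that of Boc 0.38 with replicate number 2 alone, and that of Smo -0.02 with pMN alone. The cause was not tested.

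Equal replicate numbers were not taken as pairs, under a rule that every pair of equal number correlate above 0.1. That rule does not show that the libraries are independent. The study sorted several types from the same dish, so libraries of equal number may share a differentiation. The n given with each SD counts libraries and not differentiations. Correlations were taken over pairs without p2 libraries. On day 4 deviations from group means had a median r of 0.0354 in 21 pairs of equal number (-0.0263 to 0.0989) and -0.0283 in 36 pairs of different number. With p2 included, 12 of 14 libraries (those whose group held another) correlated best with their own number. Deviations within a group cancel out, which pushes pairs of different number to the opposite sign. Their negative medians are therefore no separate comparison. On days 5 and 6 the medians were 0.0562 and 0.0389 for equal numbers, with 3 of 45 and 0 of 36 pairs above 0.1, and -0.0266 and -0.0203 for different numbers. With the replicate block 75 genes were called on day 4.

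Groups of 1 to 3 libraries, a group of 1 for p3 at 100 nM, and fewer genes detected on the ventral side limit what these data can show, and absence of a call does not show equal levels.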
